A study of Mus musculus with 15 samples.

Results

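Genes of glycolysis, glycogen metabolism and the pentose phosphate pathway were followed in sorted astroglia of 3 regions of the adult mouse brain. The list held 38 genes, taken by symbol from the platform annotation, and covered glucose entry, glycolysis, lactate, the entry of pyruvate into mitochondria, glycogen and the pentose phosphate pathway. A probe set was found for 35 of the 38, among 18194 genes measured. Gpi1, Eno1 and G6pdx had none under their symbol in the annotation and were not analysed here.

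Glycolysis splits glucose into pyruvate, which is either reduced to lactate by lactate dehydrogenase or carried into mitochondria, where pyruvate dehydrogenase turns it into acetyl-CoA. Astrocytes are known as the main store of glycogen in the brain, and they export lactate through monocarboxylate transporters. The pentose phosphate pathway branches off after glucose is phosphorylated and yields NADPH and ribose. Several steps have isoenzymes encoded by separate genes, and which of them a cell uses is part of how glucose metabolism differs between cell types.

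The arrays carried RNA of Gli1+GFAP+ cells, that is astroglia that had responded to Sonic hedgehog. All mice were male, 6 to 8 weeks old, of the genotype Gli1-CreER;GFAP-GFP;R26tdTomato, so every group shared the alleles and the tamoxifen (2 doses of 10 mg). The inducible Cre is driven by Gli1, which marks cells with active hedgehog signalling, and GFP by the astroglial GFAP promoter. Cells positive for both reporters were sorted 3 weeks after tamoxifen from the subventricular zone (SVZ), the hippocampus or the cerebellum, with 5 arrays a region and 10 to 12 mice pooled for each array. The series compared SVZ and hippocampus, which hold adult neural stem cells, each with cerebellum, and then with each other. Stem cell content and brain region cannot be told apart in this design. The labels do not say whether the same mice gave several regions, so p-values measure the spread between these pools.

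Values are log2 signals. A difference of 1 is a doubling of signal, and levels of different genes were not compared because probe sets differ in brightness. Arrays correlated with each other less tightly in the forebrain than in cerebellum: within a region r over all genes lay between 0.76 and 0.89 in SVZ, 0.79 and 0.88 in hippocampus, and 0.94 and 0.97 in cerebellum. The poly-A control transcripts added in the laboratory gave a mean of 12.56 ± 0.85 (SD, n = 5) in SVZ, 12.46 ± 0.55 in hippocampus and 10.28 ± 1.60 in cerebellum, where arrays 4 and 5 read 8.84 and 8.49. All 10 astrocyte markers listed were measured with region means above 2, and their mean level per array lay between 7.42 and 9.21. Of these 10, 2 were called lower in both forebrain regions, S100b (-3.41 in SVZ and -3.67 in hippocampus) and the glutamate transporter gene Slc1a3 (-1.83 and -2.16), and 1 was called higher in SVZ, the glutamine synthetase gene Glul (0.92). Of 7 Bergmann glia markers, genes of the astroglia of the cerebellar cortex, 6 were lower in SVZ and 6 in hippocampus than in cerebellum. Of 13 microglia markers 5 were higher in SVZ and 2 in hippocampus than in cerebellum, and their mean level per array was 3.19 to 6.18 in SVZ, 2.89 to 5.11 in hippocampus and 1.32 to 2.87 in cerebellum. Of 12 neuron markers 2 were lower in each forebrain region, Pvalb (-4.11 in SVZ and -4.37 in hippocampus) and Calb1 (-1.52 and -1.61). A mean below 2 was found for 11, 11 and 8 of the 12 in SVZ, hippocampus and cerebellum. Not all were dim in cerebellum, where Pvalb had a mean of 5.78 and Snap25 of 5.72. The Snap25 differences of -1.66 in SVZ and -2.12 in hippocampus were not called. Of 5 oligodendrocyte precursor markers 2 were higher in SVZ and 1 in hippocampus, with Olig1 at 4.52 and 4.02. Of 5 dividing cell markers Mki67 was higher in both (4.74 and 3.83), and of 7 oligodendrocyte markers Cnp was lower in both (-2.02 and -2.97). The oligodendrocyte markers did not move together: 5 of the 7 had differences above 0 in each comparison, among them Mbp (2.37 and 0.16), and none of those was called. None of 7 ependymal and choroid plexus markers was called by limma, with 1 and 0 at an unadjusted p under 0.05, and Ttr of the choroid plexus had means of 8.40, 12.82 and 11.89. The part of these other cell types in the differences below was not tested, and in pooled cells fewer cells of a type and less RNA per cell cannot be told apart.

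Most of the pathway did not pass the test in any comparison. The members that did belong to glucose entry, upper glycolysis, the lactate step and the entry of pyruvate into mitochondria. Each step holds too few genes for its number of calls to set it apart from the others. The glucose transporter gene Slc2a1 was higher in both forebrain regions than in cerebellum. The hexokinase gene Hk2 was lower in both by more than any other member, and so were Pfkm and Pdk1. Ldha was lower in SVZ, and Aldoc, Slc16a1 and Pcx were lower in hippocampus. No member passed between SVZ and hippocampus.

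A gene was called when its limma p, adjusted over the 18194 genes after Benjamini and Hochberg, was under 0.05. In SVZ against cerebellum 1 of 35 members was called higher (2.86%) and 4 lower (11.4%), against a background of 1.03% of all genes called higher and 4.47% called lower. In hippocampus against cerebellum 1 member was called higher (2.86%) and 6 lower (17.1%), against 0.808% and 3.97% of all genes. The members are brighter than most genes on the array: 31 of the 35 had a mean level above 3, as did 4817 of the 18194 genes. Among those 4817 brighter genes 2.35% were called higher and 9.99% lower in SVZ, and 1.76% and 9.13% in hippocampus. Of the 31 brighter members 1 was called higher (3.23%) in each comparison, and 3 were called lower in SVZ (9.68%) and 5 in hippocampus (16.1%). The share of members called lower in SVZ thus lay near that of bright genes in general, and the share in hippocampus, which rests on 5 genes, lay above it.

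Before adjustment p was under 0.05 for 13 of the 35 members in SVZ (37.1%) and 12 in hippocampus (34.3%), against 21.1% and 20.1% of all genes and 37.5% and 33.5% of the brighter genes. The median difference of the 35 members was -0.46 in SVZ against cerebellum (12 above 0 and 23 below) and -0.52 in hippocampus against cerebellum (11 above 0 and 24 below). Over all genes the median was 0.07 in both comparisons, and over the brighter genes it was -0.71 in SVZ and -0.70 in hippocampus. The members' medians lay between those of all genes and those of the bright genes. Under quantile normalization the members' medians were -0.05 and -0.21, and the share of higher genes among all called genes went from 18.8% (188 higher and 814 lower) to 35% (213 and 396) in SVZ and from 16.9% (147 and 722) to 31.5% (155 and 337) in hippocampus. With the spike-in level as a covariate Hk2 and Slc2a1 were the members still called in both comparisons, and no other member was called in either. Both comparisons use the same 5 cerebellum arrays, so they are not independent of each other.

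**Figure D1:**
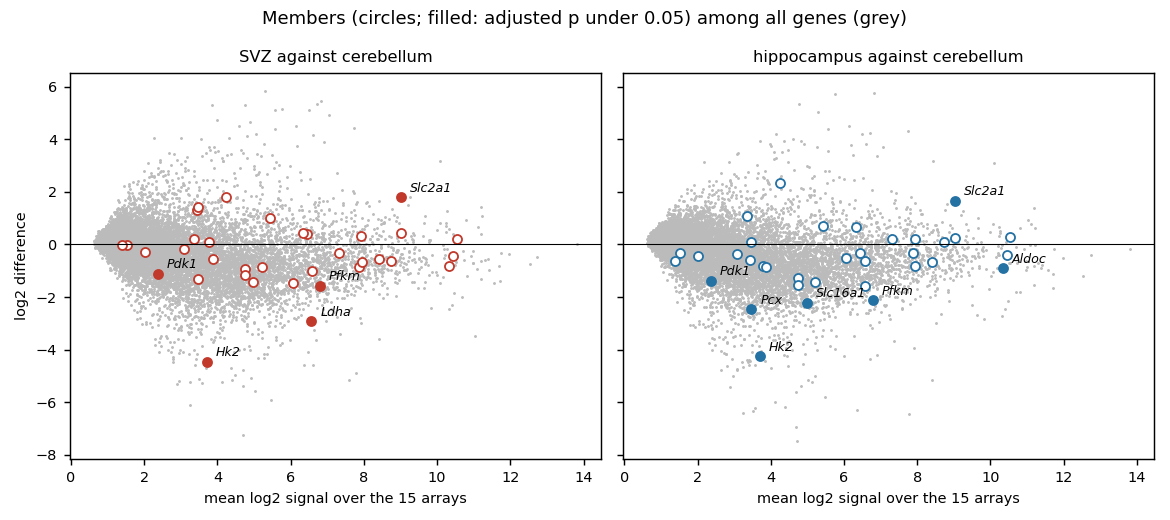
Log2 difference from cerebellum (vertical axis) against the mean log2 signal over the 15 arrays (horizontal axis), for all 18194 genes in grey and the 35 members as circles, filled where the adjusted p was under 0.05; SVZ on the left and hippocampus on the right. The members lie within the range of the grey points, with Hk2 as the lowest member at -4.46 and -4.25, and the filled circle of Slc2a1 at 1.80 and 1.66.

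**Figure D2:**
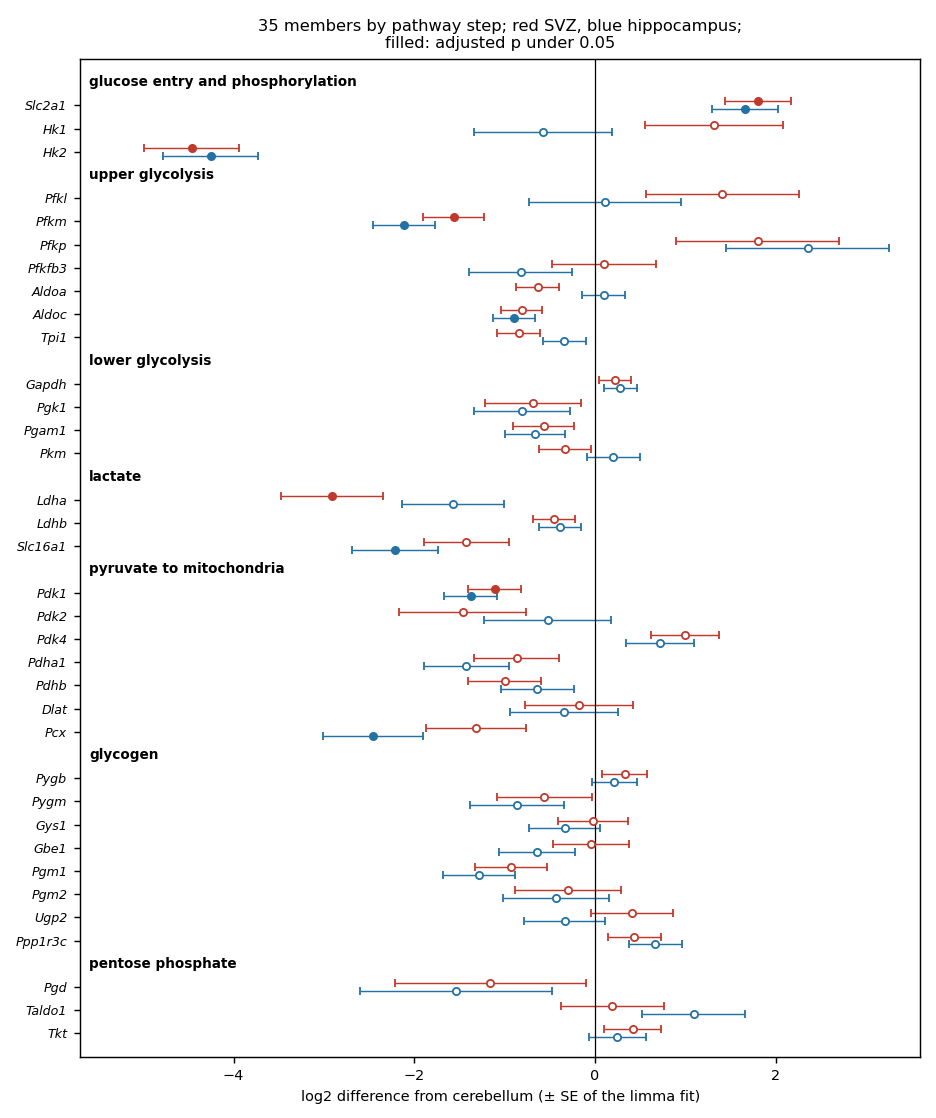
Log2 difference from cerebellum with its standard error from limma for each of the 35 members, ordered by pathway step; red is SVZ, blue is hippocampus, and filled points had an adjusted p under 0.05. The filled points lie at glucose entry, upper glycolysis, lactate and the pyruvate steps, while the lower glycolysis, glycogen and pentose phosphate genes have open points only.

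Promoter sequences are shown for Hk2, Ldha, Slc2a1 and Pfkm, the 4 members with the largest called differences in SVZ against cerebellum, because the letters ACGTG, the core of the hypoxia response element, and CACGTG, an E-box, are widely used to read the promoters of glycolytic genes. Each is the 160 bases before the annotated start in the RefSeq promoter table (GRCm38.p6), from the window of the gene with the most matches, with every ACGTG or its reverse complement CACGT in capitals. Hk2 lies at chr6:82774455-82774614 on the minus strand, Ldha at chr7:46845644-46845803, Slc2a1 at chr4:119108585-119108744 and Pfkm at chr15:98092429-98092588, all 3 on the plus strand.
Hk2: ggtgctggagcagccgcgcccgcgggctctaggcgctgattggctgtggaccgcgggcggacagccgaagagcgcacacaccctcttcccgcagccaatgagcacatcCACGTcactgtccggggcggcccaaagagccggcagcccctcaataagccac
Ldha: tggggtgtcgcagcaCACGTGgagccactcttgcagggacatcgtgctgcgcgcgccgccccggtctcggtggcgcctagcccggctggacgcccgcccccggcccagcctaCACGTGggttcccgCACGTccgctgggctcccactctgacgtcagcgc
Slc2a1: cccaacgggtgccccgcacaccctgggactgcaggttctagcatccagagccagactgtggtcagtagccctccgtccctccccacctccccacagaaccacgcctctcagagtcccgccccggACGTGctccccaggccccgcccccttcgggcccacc
Pfkm: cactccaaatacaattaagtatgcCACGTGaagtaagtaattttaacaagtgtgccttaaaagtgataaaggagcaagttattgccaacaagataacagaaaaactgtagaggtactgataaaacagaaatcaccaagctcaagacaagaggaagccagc

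The Ldha window holds 3 capital blocks, which start 145, 48 and 34 bases before the start site, and the first and second of them are CACGTG. Pfkm has a CACGTG that starts 136 bases before its start, in 1 of the 4 windows the table lists for it. Hk2 has CACGT, 52 bases before the start, and Slc2a1 has ACGTG, 36 bases before the start. In the 250 bases before the start, on both strands, ACGTG was found for 19 of the 35 members (54.3%) and for 22.5% of the 14453 measured genes with a window. By window the shares were 44.0% of 50 and 19.5% of 18110, and over all 32851 windows of that source 16.6%. CACGTG, which contains ACGTG, was found for 7 of the 35 members (20%) and for 8.73% of the measured genes, and in 6.02% of all windows. ACGTG was found for 6 of the 8 members called in some comparison and for 13 of the 27 not called (48.1%), and CACGTG for 4 and 3 of them. Genes with more windows have more places for a match. By window ACGTG was found in 7 of 15 (46.7%) for the called members and in 15 of 35 (42.9%) for the others. CACGTG was found in 4 and 3 of these windows. These are counts of letters in a window, with no test, and both the higher Slc2a1 and the lower Hk2, Pfkm and Ldha hold ACGTG.

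At glucose entry the transporter and the hexokinase gene differed in opposite directions. Slc2a1 encodes GLUT1, the facilitative transporter that brings glucose into astrocytes and across the blood-brain barrier. It read 9.50, 11.04, 9.27, 9.73 and 8.82 in SVZ (arrays 1 to 5), 8.53, 10.16, 9.75, 9.70 and 9.50 in hippocampus, and 7.47, 7.94, 7.86, 8.02 and 8.05 in cerebellum. Each of the 10 forebrain arrays lay above every cerebellum array, where the highest value was 8.05. The difference from cerebellum was 1.80 ± 0.37 (SE) in SVZ, a 3.49-fold higher signal (adjusted p = 0.0108), and 1.66 ± 0.37 in hippocampus, 3.16-fold (adjusted p = 0.0185). Of its other probe sets 1 gave 1.65 in SVZ and 1.21 in hippocampus (adjusted p = 0.154 and 0.301 when every probe set was tested), and another 2.13 and 1.26 (adjusted p = 0.0477 and 0.248). Without cerebellum arrays 4 and 5 the adjusted p was 0.0574 in SVZ and 0.0861 in hippocampus, at differences of 1.92 and 1.77. With the probe sets averaged the hippocampus difference was 1.38 (adjusted p = 0.0936), and without SVZ 1 and hippocampus 3 it was 1.60 (adjusted p = 0.0566).

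Slc2a1 is also high in brain endothelium, so endothelial and pericyte markers are given beside it. Of the 13 measured, 1 was called higher in SVZ, the pericyte gene Pdgfrb (2.88, adjusted p = 0.0145), and 0 in hippocampus by limma, with 3 and 1 at an unadjusted p under 0.05. Their mean level per array was 1.57 to 3.58 in SVZ, 1.74 to 3.55 in hippocampus and 1.40 to 2.11 in cerebellum, with 7, 7 and 11 of the 13 at a mean below 2. The defining endothelial genes had low means in SVZ, hippocampus and cerebellum: Pecam1 was at 1.48, 1.25 and 1.04, Cdh5 at 1.69, 1.59 and 1.06, and Cldn5 at 2.01, 2.85 and 1.42. All 13 differences from cerebellum were above 0 in both regions, and their part in the Slc2a1 result was not tested.

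Hk2 encodes hexokinase 2, the inducible enzyme that traps glucose as glucose 6-phosphate. It read 1.13, 3.80, 1.51, 1.80 and 2.49 in SVZ (arrays 1 to 5), 1.76, 2.05, 2.75, 3.65 and 1.57 in hippocampus, and 6.03, 7.33, 6.43, 7.42 and 5.84 in cerebellum. The forebrain arrays reached 3.80 at most and the cerebellum arrays 5.84 at least, so the groups did not overlap. The log2 difference of Hk2 from cerebellum was -4.46 ± 0.53 in SVZ and -4.25 ± 0.53 in hippocampus, with adjusted p = 0.000171 and 0.000237. Many forebrain values lie near the array medians of 1.12 to 1.31, where a signal is not clearly above background, so no fold is given. It stayed past the threshold in all 22 alternative analyses in both comparisons, with the highest adjusted p at 0.0185 and 0.0191, and with SVZ differences from -4.88 to -3.96. Only 1 probe set carries the gene.

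Hk1, the constitutive hexokinase gene of brain, read 2.02, 3.88, 4.79, 5.16 and 6.69 in SVZ (arrays 1 to 5), 2.34, 4.41, 1.06, 2.80 and 2.46 in hippocampus, and 3.36, 2.65, 2.13, 3.78 and 4.02 in cerebellum. Its arrays overlapped between all regions, and ran from 2.02 to 6.69 within SVZ alone. The differences from cerebellum, 1.32 ± 0.76 in SVZ and -0.57 ± 0.76 in hippocampus, did not pass (adjusted p = 0.339 and 0.677). The other, dimmer Hk1 probe set gave 0.05 in SVZ and 0.39 in hippocampus.

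In upper glycolysis the phosphofructokinase genes did not move together. Pfkm, the muscle-type subunit of the enzyme of the committed step, read 5.68, 6.95, 7.09, 6.56 and 6.00 in SVZ (arrays 1 to 5), 6.51, 5.72, 5.10, 6.55 and 5.66 in hippocampus, and 7.91, 8.28, 7.41, 8.53 and 7.98 in cerebellum. The highest forebrain value, 7.09, lay below the lowest cerebellum value, 7.41. The difference was -1.57 ± 0.34 in SVZ, 2.96-fold lower (adjusted p = 0.0147), and -2.11 ± 0.34 in hippocampus, 4.33-fold lower (adjusted p = 0.00203). In SVZ the adjusted p was 0.0537 under quantile normalization and 0.118 without cerebellum 4 and 5.

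Pfkp, the platelet-type subunit, read 5.82, 5.86, 5.26, 3.62 and 2.73 in SVZ (arrays 1 to 5), 6.64, 6.71, 5.27, 5.15 and 2.29 in hippocampus, and 1.89, 2.47, 2.77, 1.94 and 5.23 in cerebellum. Most forebrain arrays were high and most cerebellum arrays low, but cerebellum 5 was at 5.23 and hippocampus 5 at 2.29. The differences of 1.80 ± 0.90 in SVZ and 2.35 ± 0.90 in hippocampus did not pass (adjusted p = 0.272 and 0.166), and without hippocampus 5 the hippocampus difference was 3.08 (adjusted p = 0.0471). Another of its 3 probe sets gave 2.96 in hippocampus (adjusted p = 0.0497 when every probe set was tested). Pfkl, the liver-type subunit, had differences of 1.41 ± 0.84 and 0.11 ± 0.84, neither past the threshold.

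Aldoc encodes aldolase C, the brain aldolase that is used as an astrocyte marker. It read 9.89, 10.47, 9.95, 10.31 and 9.83 in SVZ (arrays 1 to 5), 10.56, 9.36, 10.01, 10.19 and 9.91 in hippocampus, and 10.50, 11.13, 10.60, 11.30 and 10.98 in cerebellum. All SVZ arrays lay below all cerebellum arrays, the highest SVZ value being 10.47 and the lowest cerebellum value 10.50, whereas hippocampus 1 at 10.56 reached into the cerebellum range. The hippocampus difference was -0.90 ± 0.23, 1.86-fold lower (adjusted p = 0.0394), and the SVZ difference of -0.81 ± 0.23 did not pass (adjusted p = 0.0556), though it did without SVZ 2 (adjusted p = 0.0454) and with probe sets averaged (-1.12, adjusted p = 0.0255). The hippocampus call was lost in 16 of 22 alternatives. Those include leaving out any 1 of hippocampus 2, 3, 4 or 5 or cerebellum 2, 4 or 5, which gave differences of -0.94 to -0.73 and adjusted p of 0.0554 to 0.105.

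The other upper members were not past the threshold. Aldoa, the ubiquitous aldolase gene, differed from cerebellum by -0.64 ± 0.24 in SVZ and 0.10 ± 0.24 in hippocampus. Tpi1, for triose phosphate isomerase, differed by -0.85 ± 0.24 (adjusted p = 0.0523) and -0.34 ± 0.24. A dimmer Tpi1 probe set gave -1.16 and -1.05 (adjusted p = 0.0260 and 0.0465 when every probe set was tested), so its probe sets disagree on the call. Pfkfb3, whose product makes the activator fructose 2,6-bisphosphate, differed by 0.10 ± 0.57 and -0.82 ± 0.57.

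In lower glycolysis 0 of 4 members passed in either comparison with cerebellum by limma. Of all genes 1.03% were called higher and 4.47% lower in SVZ, and 0.808% and 3.97% in hippocampus. An unadjusted p under 0.05 was found for 0 of 4, and for 21.1% and 20.1% of all genes. With so few genes, a count of 0 does not set the step apart. Differences ran from -0.68 to 0.22 in SVZ and from -0.81 to 0.28 in hippocampus. Gapdh, often taken as a reference gene, was read by the array's control probe set at the 3′ end and differed by 0.22 ± 0.18 and 0.28 ± 0.18. Pkm, for the pyruvate kinase of the last step, read 6.25, 7.28, 6.94, 7.16 and 7.5 in SVZ (arrays 1 to 5), 7.62, 8.37, 7.07, 6.98 and 7.75 in hippocampus, and 7.22, 7.48, 6.93, 7.33 and 7.81 in cerebellum. The 3 regions overlapped, with differences of -0.33 ± 0.29 and 0.20 ± 0.29 (adjusted p = 0.530 and 0.694). Pgk1, for the first ATP-yielding step, differed by -0.68 ± 0.53 and -0.81 ± 0.53, while its other probe sets lay between 0.06 and 0.12. Pgam1, for the mutase that follows, differed by -0.57 ± 0.33 and -0.66 ± 0.33.

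At the lactate step, Ldha, the subunit gene associated with lactate formation, had the second largest called difference in SVZ. It read 5.08, 6.60, 5.75, 2.49 and 5.82 in SVZ (arrays 1 to 5), 6.86, 6.80, 5.90, 6.15 and 6.72 in hippocampus, and 7.85, 8.25, 8.03, 7.85 and 8.31 in cerebellum. Both forebrain regions lay wholly below cerebellum, with SVZ 4 far down at 2.49 and the highest forebrain value at 6.86, against a lowest cerebellum value of 7.85. The SVZ difference was -2.91 ± 0.57, 7.52-fold lower (adjusted p = 0.00791). In hippocampus the difference of -1.57 ± 0.57 did not pass with the spread shared over all regions (adjusted p = 0.139), and passed when only hippocampus and cerebellum entered the fit (adjusted p = 0.00269). The SVZ call held on leaving out each of the 10 arrays in turn, with differences of -3.27 to -2.25, and was lost without cerebellum 4 and 5 together (adjusted p = 0.0614). Only 1 probe set carries Ldha here.

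Ldhb, the subunit gene associated with lactate use, read 10.62, 10.52, 10.53, 9.99 and 9.69 in SVZ (arrays 1 to 5), 10.84, 10.44, 9.87, 10.05 and 10.49 in hippocampus, and 10.45, 10.58, 10.87, 10.59 and 11.15 in cerebellum. The regions overlapped, at differences of -0.46 ± 0.23 and -0.39 ± 0.23 (adjusted p = 0.274 and 0.352). Another Ldhb probe set gave -0.94 and -1.10 (adjusted p = 0.0533 and 0.0290 when every probe set was tested).

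Slc16a1 encodes MCT1, a monocarboxylate transporter that moves lactate out of astrocytes. It read 3.64, 5.45, 4.92, 5.23 and 4.59 in SVZ (arrays 1 to 5), 3.12, 5.35, 2.80, 3.95 and 4.66 in hippocampus, and 5.35, 6.15, 6.34, 6.77 and 6.34 in cerebellum. The highest hippocampus array and the lowest cerebellum array both read 5.35, and all other hippocampus arrays lay lower. The hippocampus difference was -2.21 ± 0.47, 4.64-fold lower (adjusted p = 0.0149), and its SVZ difference of -1.42 ± 0.47 did not pass (adjusted p = 0.101; 0.0464 with only the 2 groups compared). The hippocampus call was lost without cerebellum 4 and 5 (adjusted p = 0.137). Its other, dimmer probe set gave 0.11 and 0.05. MCT1 is also made by brain endothelium, whose markers are given with Slc2a1, and the part of endothelium in the Slc16a1 result was not tested.

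Where pyruvate enters mitochondria, the kinase gene Pdk1 and the carboxylase gene Pcx passed. Pdk1 encodes a kinase that switches pyruvate dehydrogenase off. It read 1.97, 2.08, 1.73, 2.79 and 1.86 in SVZ (arrays 1 to 5), 1.47, 1.78, 1.28, 2.40 and 2.18 in hippocampus, and 3.86, 3.52, 2.67, 3.31 and 2.63 in cerebellum. The levels are dim, below 4 on every array, and the forebrain arrays are not clearly above background, so no fold is given. SVZ 4 at 2.79 overlapped the lowest cerebellum arrays, and no hippocampus array did. The difference was -1.11 ± 0.29 in SVZ and -1.38 ± 0.29 in hippocampus, with adjusted p = 0.0412 and 0.0148. The SVZ call was lost on leaving out any 1 of SVZ 1, 2, 3 or 5 or cerebellum 1, 2 or 4, with differences of -1.11 to -0.95 and adjusted p of 0.0661 to 0.101. The hippocampus call was kept on leaving out each array, and was lost when its 4 probe sets were averaged (-0.45, adjusted p = 0.157) and under quantile normalization (-1.03, adjusted p = 0.131).

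Pcx encodes pyruvate carboxylase, which refills the citric acid cycle and is used as an astrocyte enzyme in brain. It read 2.81, 3.57, 1.99, 5.06 and 3.62 in SVZ (arrays 1 to 5), 1.67, 2.16, 2.48, 2.69 and 2.32 in hippocampus, and 4.17, 4.89, 3.18, 5.94 and 5.44 in cerebellum. The hippocampus arrays were close together and all below the lowest cerebellum array, 3.18, while the SVZ arrays spread from 1.99 to 5.06 across both. The hippocampus difference was -2.46 ± 0.55 at these dim levels (adjusted p = 0.0200), and the SVZ difference of -1.31 ± 0.55 did not pass (adjusted p = 0.194). Without cerebellum 2, 4 or 5 the hippocampus difference was -2.42 to -2.16, with adjusted p of 0.0523 to 0.0610, and under quantile normalization it was -1.97 (adjusted p = 0.0734). A control probe set at the 3′ end of Pcx gave -1.81 in hippocampus (adjusted p = 0.0399 when every probe set was tested), and 3 dimmer probe sets gave -0.48 to -0.23.

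The remaining 5 genes of this step did not pass. Pdk4, a kinase gene induced by fasting and fatty acids, was the only member of the step with differences above 0, at 0.996 ± 0.38 in SVZ and 0.716 ± 0.38 in hippocampus. Pdk2, the most widely expressed of these kinases, differed by -1.46 ± 0.70 and -0.52 ± 0.70. The pyruvate dehydrogenase subunit genes all had negative differences: Pdha1 -0.87 ± 0.47 and -1.42 ± 0.47, Pdhb -1.0 ± 0.40 and -0.64 ± 0.40, and Dlat -0.18 ± 0.60 and -0.35 ± 0.60.

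**Figure D3:**
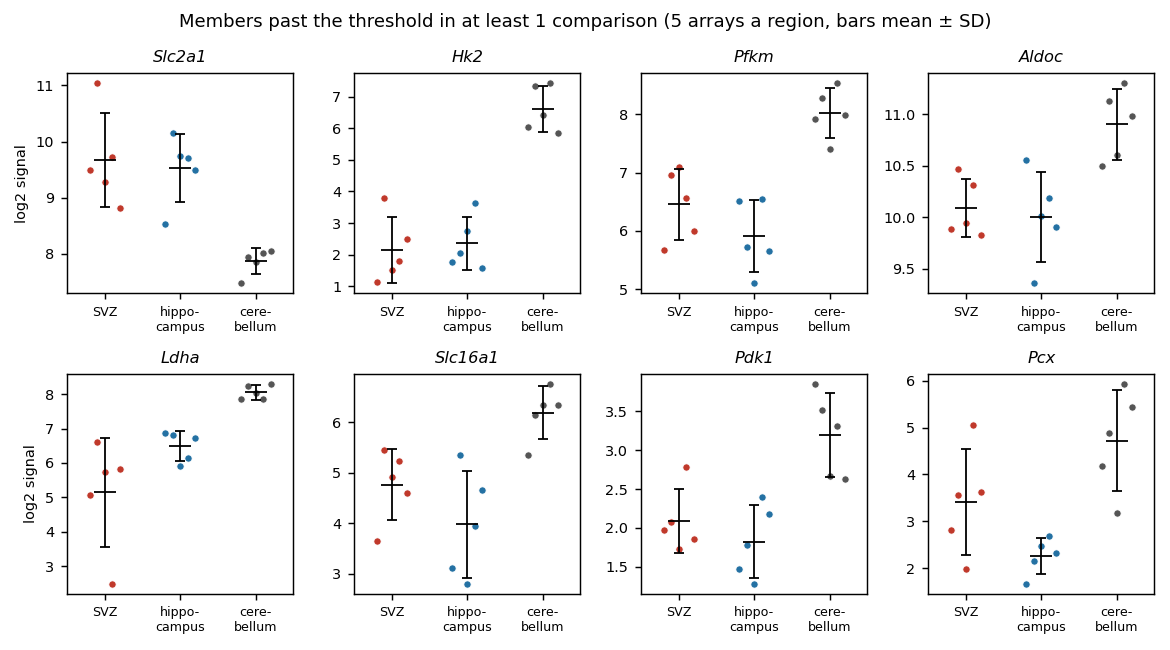
Log2 signal on each array (points, left to right arrays 1 to 5 of a region) with mean ± SD for the 8 members called in at least 1 comparison with cerebellum. Slc2a1 is higher and Hk2 lower in both forebrain regions without overlap, while Slc16a1, Pdk1, Aldoc and Pcx overlap in at least 1 of the 2 comparisons.

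For glycogen 0 of 8 members passed in either comparison with cerebellum by limma, with 1 and 2 at an unadjusted p under 0.05, which holds for 21.1% and 20.1% of all genes. Pygb, for the brain glycogen phosphorylase that releases glucose units, read 8.49, 8.08, 7.85, 7.79 and 8.17 in SVZ (arrays 1 to 5), 7.48, 7.45, 7.99, 8.10 and 8.79 in hippocampus, and 7.67, 8.01, 7.28, 7.93 and 7.86 in cerebellum. The arrays overlapped, at differences of 0.33 ± 0.25 and 0.21 ± 0.25 (adjusted p = 0.470 and 0.634). Gys1, for the glycogen synthase of brain and muscle, read 1.5, 1.26, 0.90, 3.04 and 1.43 in SVZ (arrays 1 to 5), 1.77, 1.25, 1.17, 1.39 and 0.99 in hippocampus, and 1.43, 2.83, 1.17, 1.07 and 1.74 in cerebellum. These values are near the array medians, so the probe set gives little signal in any region, and the differences were -0.02 ± 0.39 and -0.33 ± 0.39. Gbe1, for the branching enzyme, was as dim, with region means of 1.58, 0.97 and 1.62.

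Pgm1 (Entrez 72157), a phosphoglucomutase gene that links glucose 6-phosphate with glycogen, had the lowest differences of the glycogen group, at -0.93 ± 0.40 in SVZ and -1.28 ± 0.40 in hippocampus (adjusted p = 0.20 and 0.0852). Every hippocampus array of Pgm1, at most 5.07, lay below every cerebellum array, at least 5.29. Ppp1r3c, whose product brings phosphatase to glycogen and favours synthesis, had the highest, at 0.44 ± 0.29 and 0.67 ± 0.29 (adjusted p = 0.415 and 0.222). Its other, dimmer probe set had the opposite sign, at -1.80 in SVZ and -0.60 in hippocampus, so its direction depends on the probe set. Pygm, for the muscle phosphorylase that astrocytes also express, differed by -0.56 ± 0.52 and -0.86 ± 0.52. Ugp2, which makes the UDP-glucose for glycogen, differed by 0.41 ± 0.45 and -0.33 ± 0.45, and Pgm2 (Entrez 66681) by -0.30 ± 0.59 and -0.43 ± 0.59. All other Ugp2 probe sets had negative differences in SVZ, from -1.04 to -0.11.

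In the pentose phosphate pathway 0 of 3 members passed in either comparison with cerebellum by limma, where 1.03% and 0.808% of all genes were called higher and 4.47% and 3.97% lower. None had an unadjusted p under 0.05, which holds for 21.1% and 20.1% of all genes. These 3 genes are too few to set the step apart. Tkt, for transketolase, differed by 0.42 ± 0.32 and 0.25 ± 0.32, and Taldo1, for transaldolase, by 0.19 ± 0.57 and 1.09 ± 0.57. Both belong to the non-oxidative arm. Pgd, of the oxidative arm, differed by -1.16 ± 1.06 and -1.54 ± 1.06. Its values fell apart within the forebrain regions: SVZ 5 was at 0.97 and the other SVZ arrays at 4.73 or more, and hippocampus 1 and 4 were at 1.91 and 1.39 with the others at 5.48 or more. Its SD was 2.01 in SVZ and 2.25 in hippocampus, the highest of any member in these regions.

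Isoenzyme genes were then compared within each array, which drops a shift that is equal for all genes of an array. A shift that depends on the signal level is not dropped where the 2 genes differ in brightness. Only the change between regions is read, since the size of a within-array difference depends on the probe sets. With 6 pairs and 3 comparisons there were 18 two-sided exact permutation tests over arrays, the smallest p of 5 against 5 arrays being 0.00794, and 10 had an adjusted p under 0.05. Leaving out any 1 of cerebellum 1, 2, 3 or 4 left 0 of 18 past the threshold, where 4 against 5 arrays allow no p below 0.0159, and leaving out SVZ 1 left 6.

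Ldha minus Ldhb was -5.54, -3.92, -4.78, -7.5 and -3.87 for SVZ, -3.98, -3.64, -3.97, -3.90 and -3.77 for hippocampus, and -2.60, -2.33, -2.84, -2.74 and -2.84 for cerebellum. All 10 forebrain arrays lay below all cerebellum arrays. The change from cerebellum was -2.45 in SVZ and -1.18 in hippocampus (exact permutation test, adjusted p = 0.0357 each). SVZ and hippocampus differed by -1.27 (exact permutation test, adjusted p = 0.117; 0.0390 under quantile normalization), a difference that includes SVZ 4.

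Hk2 minus Hk1 ran from -4.20 to -0.08 in SVZ, from -2.36 to 1.69 in hippocampus and from 1.82 to 4.68 in cerebellum. Cerebellum did not overlap with either forebrain region. The change was -5.78 in SVZ and -3.68 in hippocampus (exact permutation test, adjusted p = 0.0357 each). Pfkp minus Pfkm ran from -3.27 to 0.14, from -3.37 to 0.99 and from -6.59 to -2.75, and its change from cerebellum was 3.36 in SVZ and 4.47 in hippocampus (exact permutation test, adjusted p = 0.0429 and 0.0357). Cerebellum 5, at -2.75, overlapped both.

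Aldoc minus Aldoa was lower in hippocampus than in the other regions. It ran from 0.17 to 1.52 in hippocampus, from 1.37 to 2.16 in SVZ and from 1.49 to 2.48 in cerebellum. The difference was -0.99 from cerebellum and 0.82 for SVZ against hippocampus (exact permutation test, adjusted p = 0.0357 each), and -0.18 for SVZ against cerebellum (exact permutation test, adjusted p = 0.471). With each gene's probe sets averaged these were lost: -0.66 and 0.04 (exact permutation test, adjusted p = 0.156 and 0.937). Pygm minus Pygb changed by -0.89 in SVZ against cerebellum (exact permutation test, adjusted p = 0.0357), and the hippocampus change of -1.07 did not pass (exact permutation test, adjusted p = 0.204). Pdk4 minus Pdk2 was higher in SVZ by 2.46 (exact permutation test, adjusted p = 0.0429; 0.0536 with probe sets averaged), and the hippocampus change of 1.24 did not pass (exact permutation test, adjusted p = 0.204).

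**Figure D4:**
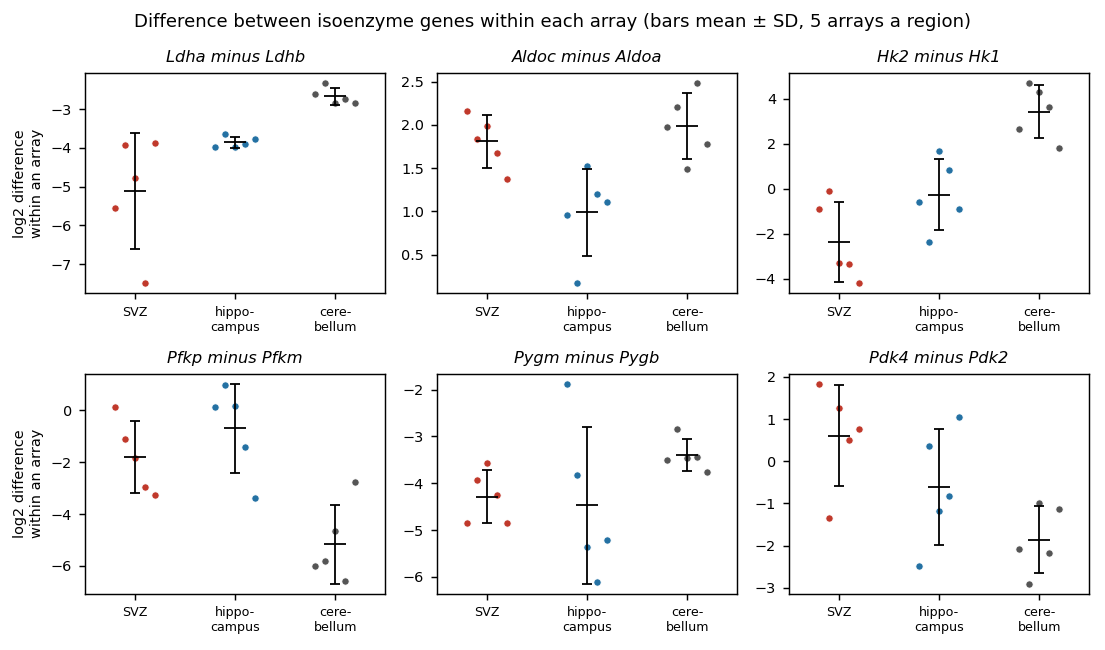
Log2 difference between 2 isoenzyme genes within each array (points, arrays 1 to 5 of a region from left to right) with mean ± SD, for 6 pairs. Ldha minus Ldhb and Hk2 minus Hk1 separate cerebellum from both forebrain regions, while the other pairs overlap with cerebellum in both comparisons.

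Between SVZ and hippocampus 0 of 35 members passed by limma, where 0.022% of all genes did, and 3 members had an unadjusted p under 0.05 (8.57%, against 7.02% of all genes). The median difference was 0.14, with 23 members above 0 and 12 below, against a median of -0.004 over all genes. The arrays overlapped for all 35, and only 0.813% of all genes had no overlap, so this is no trait of the members. The 3 with an unadjusted p under 0.05 were Hk1 at 1.89 ± 0.76, Aldoa at -0.73 ± 0.24 and Ldha at -1.34 ± 0.57 (adjusted p = 0.632, 0.511 and 0.664). For SVZ against hippocampus the dimmer Hk1 probe set had the opposite sign, at -0.34, and the other Aldoa probe sets ran from -0.55 to 0.09. Hk2 and Slc2a1, called in both comparisons with cerebellum, differed between SVZ and hippocampus by -0.21 ± 0.53 and 0.14 ± 0.37 (adjusted p = 0.939 and 0.942).

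Of 60 further genes of the same pathways, listed for this comparison, 55 were measured. In SVZ against cerebellum 1 was called higher (1.82%) and 6 lower (10.9%), against 1.03% and 4.47% of all genes. In hippocampus 1 was called higher (1.82%) and 3 lower (5.45%), against 0.808% and 3.97% of all genes. The median differences were 0.02 and -0.03, against 0.07 over all genes in both comparisons. The glycerol phosphate shuttle carries electrons of glycolytic NADH to mitochondria, and both of its enzyme genes were called, in opposite directions, in both comparisons with cerebellum. Gpd1, for the cytosolic glycerol phosphate dehydrogenase, read 2.48, 5.21, 3.32, 2.81 and 6.12 in SVZ (arrays 1 to 5), 4.41, 3.46, 0.97, 1.26 and 5.25 in hippocampus, and 7.71, 8.57, 8.07, 8.89 and 8.21 in cerebellum. Its difference was -4.30 ± 0.86 in SVZ and -5.22 ± 0.86 in hippocampus (adjusted p = 0.00908 and 0.00239), with no fold given because hippocampus 3 and 4 lie at the array medians. Gpd2, for the mitochondrial enzyme, read 9.43, 7.27, 6.91, 6.81 and 6.33 in SVZ (arrays 1 to 5), 8.04, 6.96, 7.59, 7.59 and 6.64 in hippocampus, and 4.87, 4.50, 4.99, 4.96 and 4.94 in cerebellum. Its difference was 2.5 ± 0.46 in SVZ, 5.65-fold higher, and 2.51 ± 0.46 in hippocampus, 5.70-fold higher (adjusted p = 0.00594 and 0.00559). Neither gene overlapped between forebrain and cerebellum arrays, and with the spike-in level as a covariate neither passed, with adjusted p from 0.115 to 0.281. Without cerebellum 4 and 5 the SVZ difference of Gpd1 was -4.13 (adjusted p = 0.0766).

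The other called genes of this list were dimmer, 3 of the 4 named next with a mean level below 3. Rpe, for ribulose phosphate epimerase of the pentose phosphate pathway, differed by -2.79 ± 0.68 in SVZ (adjusted p = 0.0281), a call lost on leaving out any 1 of 7 arrays (SVZ 1, 2 or 4, or cerebellum 1, 3, 4 or 5), with adjusted p of 0.0562 to 0.0696. Gyg, for the glycogenin that primes glycogen, differed by -2.15 ± 0.48 in SVZ (adjusted p = 0.0174), which was lost without cerebellum 2 or 5 (adjusted p of 0.0502 to 0.0537). Pfkfb4, for another enzyme of fructose 2,6-bisphosphate, differed by -1.5 ± 0.36 in SVZ and by -1.55 ± 0.36 in hippocampus (adjusted p = 0.0253 and 0.0239). The SVZ call of Pfkfb4 was lost without SVZ 1, 3 or 5 or cerebellum 4 (adjusted p of 0.0536 to 0.0691), and the hippocampus call without hippocampus 3 or 5 or cerebellum 4 (adjusted p of 0.0515 to 0.0686). Pgm3, whose enzyme belongs to the hexosamine route, differed by -1.47 ± 0.33 in SVZ and by -1.28 ± 0.33 in hippocampus (adjusted p = 0.0162 and 0.0373). Its hippocampus call was lost without hippocampus 1, 3, 4 or 5 or cerebellum 1, 3 or 5 (adjusted p of 0.0652 to 0.0913).

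Of 15 regulators of these pathways, 0 were called in SVZ and 1 in hippocampus against cerebellum by limma, with 4 and 3 at an unadjusted p under 0.05 (26.7% and 20%, against 21.1% and 20.1% of all genes). Ppargc1a, for the coactivator PGC-1α of mitochondrial genes, was higher in hippocampus by 1.30 ± 0.32 (adjusted p = 0.0343). That call was lost in 15 of 21 alternatives, among them leaving out any 1 of hippocampus 1, 3, 4 or 5 or cerebellum 2, 3, 4 or 5 (adjusted p of 0.0586 to 0.0848). Hif1a and Epas1 are named for the motif, with their values already known. Hif1a, for the hypoxia factor that binds the ACGTG core, read 3.63, 3.04, 2.68, 3.25 and 4.00 in SVZ (arrays 1 to 5), 4.30, 4.36, 4.69, 1.65 and 3.49 in hippocampus, and 3.85, 4.38, 4.23, 5.15 and 4.79 in cerebellum. Its differences of -1.16 ± 0.49 in SVZ and -0.78 ± 0.49 in hippocampus did not pass (adjusted p = 0.194 and 0.377). Those of Epas1, for its relative HIF-2α, were 0.91 and 0.83 (adjusted p = 0.146 and 0.20).

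**Figure D5:**
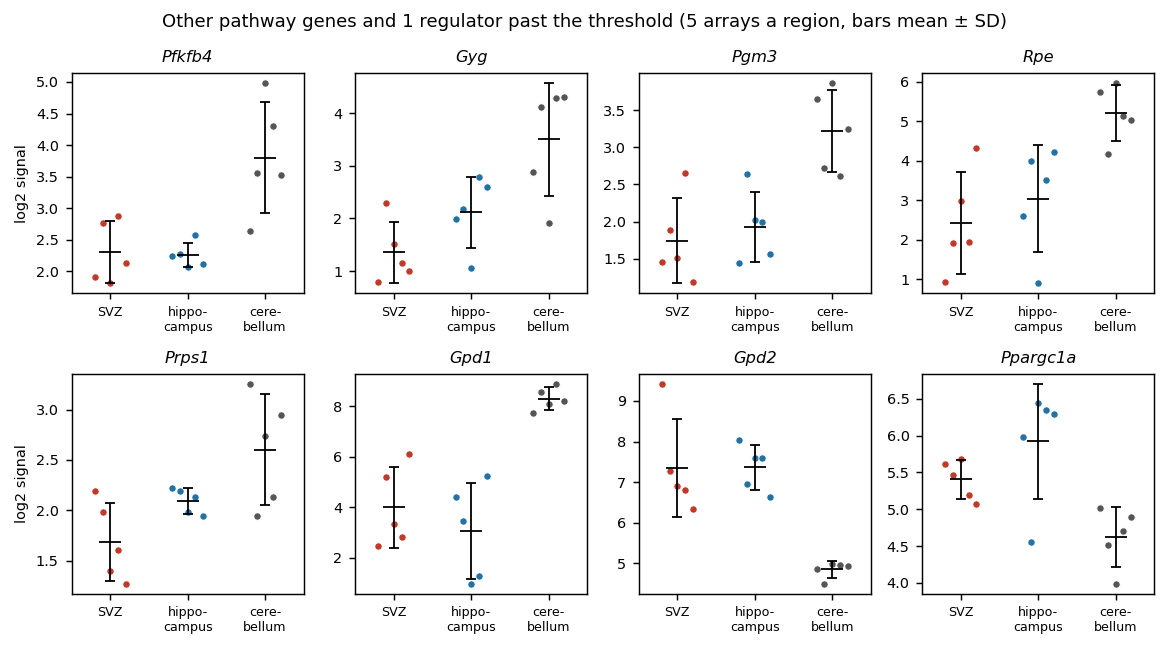
Log2 signal on each array (points, arrays 1 to 5 of a region from left to right) with mean ± SD for the 7 further pathway genes and 1 regulator called in at least 1 comparison with cerebellum. Gpd1 is lower and Gpd2 higher in both forebrain regions without overlap, while each of the other genes shown overlaps with cerebellum in at least 1 of the 2 comparisons.

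How much the members varied differed by region as well. For the median member the SD over arrays was 0.82 (SVZ), 0.62 (hippocampus) and 0.42 (cerebellum). In cerebellum Pfkp had the highest SD, 1.38. Over the brighter genes the median SD was 1.00 in both forebrain regions and 0.48 in cerebellum. The bright members Gapdh and Ldhb varied less, with SDs of 0.27, 0.26 and 0.26 for Gapdh and 0.41, 0.38 and 0.28 for Ldhb in SVZ, hippocampus and cerebellum. The median level of the members on an array was 5.26 to 5.86 in SVZ, 5.46 to 6.03 in hippocampus and 5.73 to 6.82 in cerebellum. The difference between the 3′ and 5′ probe sets of Gapdh, a measure of RNA length, was 2.92 to 3.94, 2.68 to 4.24 and 2.92 to 3.49, so the regions overlapped in it.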

How the data were processed

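The authors deposited values of 15 arrays normalized with RMA, per the submitters' processing notes. They were read here as log2 signals, since the deposited array maxima lay between 14.97 and 15.08, while the sources used here give neither the log base nor the RMA version. Per the labels' protocols, RNA was amplified with the WT-Ovation Pico system. Of 45101 probe sets 34958 carried 1 gene symbol, 932 several and 9211 were not listed, and 34754 symbols were updated by Entrez identifier. Each gene took its probe set with the highest mean. For 4 members, Aldoa, Tpi1, Pgd and Tkt, that probe set ends in _x_at, which marks probes shared with other sequences, so related genes may contribute.

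Region was fitted over all 15 arrays with limma 3.58.1 in R 4.3.3, and p-values were adjusted by Benjamini-Hochberg over 18194 genes. The number of arrays limits the precision. Other steps used Python 3.11.15. The members and gene lists were chosen with earlier results of these data known. All members are accounted for; values on every array are printed for called members and for set members of the entry, committed and last steps, and of the further list at most the 4 largest called differences per comparison and direction are named. Alternatives covered scaling, spike-in covariate, probe sets, spread, the arrays used and a replicate block.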

Additional observations from a re-analysis of the deposited data

Results flagged for a closer look

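In 6 of 105 groups of 5 arrays (35 members in 3 regions) the highest or lowest array stood apart from the others by more than Dixon's critical value of 0.71, as the gap to the nearest array over the range of the group. Chance alone gives about 1 in 20 groups, so this number is near what chance gives. Pfkl read 1.83 on SVZ 3, against 4.59 to 5.27 on the other SVZ arrays. Pfkp read 5.23 on cerebellum 5, against 1.89 to 2.77. Pgk1 read 9.14 on cerebellum 5, against 8.20 to 8.31. Gys1 read 3.04 on SVZ 4, against 0.90 to 1.5. Pgm2 read 4.19 on hippocampus 1, against 0.84 to 1.72. Pgd read 0.97 on SVZ 5, against 4.73 to 5.98.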

How the results depend on the processing

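Hk2 was the only member called in both comparisons with cerebellum under all 22 alternatives, and no called value changed sign. For SVZ against cerebellum (1 higher, 4 lower), quantile normalization gave 2 higher and 2 lower, the spike-in covariate 1 lower, leaving out cerebellum 4 and 5 gave 0 higher and 1 lower, and the 4-fold threshold of the series design with unadjusted p under 0.01 gave 0 higher and 2 lower. For hippocampus against cerebellum (1 higher, 6 lower), quantile normalization gave 3 lower, the spike-in covariate 1 lower, leaving out cerebellum 4 and 5 gave 0 higher and 3 lower, and averaged probe sets, leaving out SVZ 1 with hippocampus 3, and the series thresholds each gave 0 higher. With the spike-in covariate Hk2 and Slc2a1 alone passed among members in both comparisons. The cause of these changes was not tested, and the spike-in level differs with region. Leaving out each array in turn gave 3 to 4 lower and always 1 higher in SVZ, 4 to 6 lower and 1 to 2 higher in hippocampus (Pfkp without hippocampus 5), and 0 to 11 of the 18 isoenzyme tests past the threshold; 4 against 5 arrays allow no p below 0.0159. Median centring moved the median of all genes from 0.07 to -0.04 in both comparisons with cerebellum.

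With the replicate block in the limma fit 5 members were lower in SVZ and 6 in hippocampus, and 1 higher in each. Slc16a1 entered in SVZ (adjusted p = 0.0451) and Aldoc left in hippocampus (adjusted p = 0.0761). The hippocampus count stayed at 6, so a member not called there in the main fit also entered, which is not named here. The block gave 0 isoenzyme tests past the threshold, since 5 pairs allow no p below 0.0625. Deviations of same-numbered arrays from their group means correlated at -0.12 to 0.14. Arrays lay closest to their own number in 5, 3 and 2 of 5 cases in the 3 comparisons. In SVZ against cerebellum all 5 of these correlations were above 0, at 0.03 to 0.11, so the check does not show that the numbers are unrelated. The labels do not say that a number is shared between regions, and for that reason the main fit did not pair the arrays. Whether same-numbered arrays share mice or handling was not tested. Testing every probe set on its own was chosen after seeing the data. Levels near 1 to 2 lie close to the array medians, so small differences of dim genes could not be seen.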
